A study of Schizocosa ocreata with 10 samples.

Results

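This comparison sets brains of mature wolf spiders (Schizocosa ocreata) beside brains of immature spiders whose libraries had little RNA of Gene001811, a gene whose best Drosophila match is the hormone receptor Hr4. The immature libraries were chosen by that measured value, namely a Gene001811 level under 10 CPM (the read count of the gene normalized to the total count of the library), which 2 of the 5 immature libraries met. The 5 mature libraries were all kept, so 7 of the 10 libraries entered the comparison and 3 immature libraries were set aside. The 5 mature libraries came from 3 females and 2 males, and the immature ones from 1 female (immature female 3) and 1 male (immature male 2). Immature female 2, immature male 1 and immature male 3 were the libraries set aside, and their values are given for part of the genes, without a test.

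All spiders were collected as immature (penultimate) animals in the field and kept in the laboratory, 1 brain per library, without a drug or a genetic change. The brains of mature spiders were taken 24 hours after their maturity molt. Immature spiders were dissected 3 to 4 days after collection, and neither their age nor the time left until their molt was known, so stage and these handling times cannot be told apart. The excised brain may include esophagus, which runs through the spider's nervous mass.

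Gene001811 had 1.70, 3.73, 2.04, 5.52 and 2.08 CPM in mature females 1, 2 and 3 and mature males 2 and 3, against 1.43 and 1.35 CPM in immature female 3 and immature male 2. In the libraries set aside it had 159, 509.9 and 661 CPM. No immature library lay near the threshold, the nearest inside it being at 1.43 CPM and the nearest outside it at 159 CPM. Because these values chose the libraries, neither this gene nor the 2 others on its contig are given a test.

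Arthropods grow by moulting, which pulses of the steroid hormone ecdysone drive through a cascade of nuclear receptors. In insects Hr4, Hr3 and E75 are induced by a pulse and the receptor ftz-f1 follows as the hormone falls. A molt replaces the cuticle, a layer of chitin and cuticle proteins, while collagens form the matrix and the basement membranes that sheathe brain, nerve and muscle. Cytochrome P450 enzymes and glutathione S-transferases oxidize and conjugate hormones, lipids and foreign compounds.

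Totals lay between 3481348 reads (mature female 2) and 11789754 reads (mature female 3) in mature brains, against 9113481 and 5916540 reads in immature female 3 and immature male 2. The tissue label was checked against marker genes matched by their Drosophila names. Synaptotagmin Syt1 summed to between 682 and 1640 CPM and complexin to between 176 and 517 CPM over the 10 libraries, whereas the muscle myosin Mhc summed to between 21087 and 49412 CPM in this tissue, which was excised from between muscles. No gene carried elav or Tm2 as its best match. Sarcomere genes held 20.1, 17.3, 17.0, 13.3 and 15.1% of the counts in the mature libraries, against 13.9 and 16.8% in immature female 3 and immature male 2, and these ranges overlapped. Immature female 3 stood apart from every other library in haemocyanin, the oxygen carrier of spider blood, which held between 0.0105% and 0.306% of counts in mature brains, against 1.58 and 0.0790% in immature female 3 and immature male 2.

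Of 25922 genes counted, 24202 passed the filter on low counts and were tested, Gene001811 left aside. At an adjusted p under 0.05, 14 genes were called by the quasi-likelihood F test of the package edgeR. Of these, 11 (0.0455% of genes tested) rose in mature brains and 3 (0.0124%) fell. The 11 genes lay on 4 contigs, and 9 of them were a collagen or reading frames that overlap a collagen, so the calls are fewer independent signals than genes. The other 2 were proteases at high levels in mature males alone, which passed the filter through those 2 libraries. Of the 3 genes that fell, Gene010232 passed the filter through the 2 immature libraries, where it was high. An unadjusted p under 0.05 was reached by 1792 genes. The likelihood ratio test, a more permissive test of the same fit, called 149 genes higher (0.616%) and 197 lower (0.814%) in mature brains, all 14 among them. Groups without overlap, with both immature libraries below or both above all 5 mature libraries, were found for 1026 genes higher (4.24%) and 2025 genes lower (8.37%) in mature brains. Genes near 0 in 1 group could pass the filter only through the other group and had to differ, so such counts are a description.

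These calls rested on few libraries. None of the 14 genes was called without immature female 3, immature male 2, mature female 2 or mature female 3, and 1 (Gene018671) was called without mature male 2, while 10 were called without mature female 1 and 8 without mature male 3. None was called when all 10 libraries were fitted together with the set-aside libraries as a level of their own. The direction of each of the 14 was the same in every one of these fits that tested it. Every gene named here beyond the naming rule given with the methods (the collagen IV genes, Loxl2, Plod, the papilin matches, the adult-specific cuticle genes, Cyp6a13, Cyp49a1, Cyp18a1, Mcm2 and nAChRalpha2) was chosen after its values were seen.

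**Figure D1:**
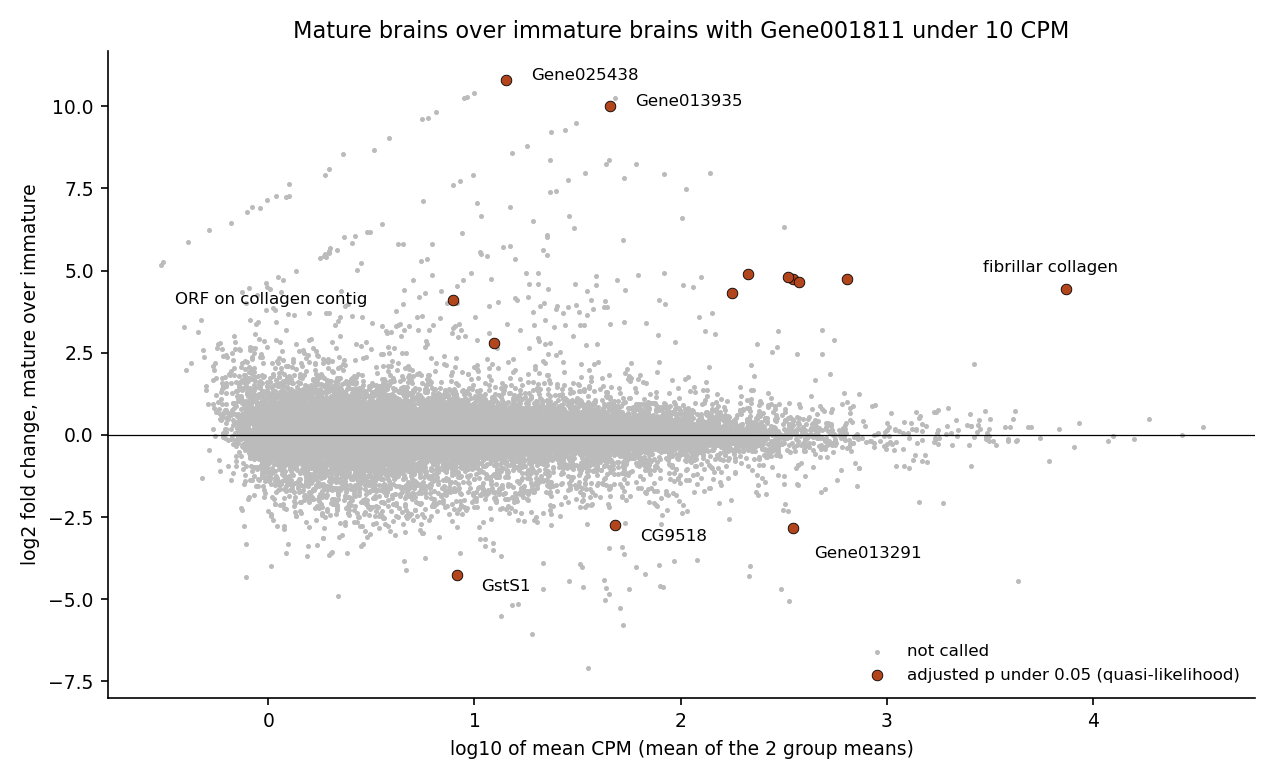
Fitted log2 fold change of mature over immature brains against the log10 of the mean CPM for the 24202 genes tested, with the 14 called genes marked in colour. The collagen gene and its overlapping reading frames form the group between log2 fold changes of 4.32 and 4.91 at high mean CPM, and the called proteases lie at the top.

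The gene most abundant among those that rose was Gene018666, a collagen with the fibrillar collagen C-terminal domain whose best matches are the collagen alpha-2(I) chain and Drosophila Col4a1. Fibrillar collagens build the tough fibres of connective tissue. Its coding sequence runs from position 4787 to position 351 on the reverse strand of its assembled contig and is 4437 nucleotides long. It had 18226, 15534, 13704, 13126 and 10133 CPM in mature females 1, 2 and 3 and mature males 2 and 3, against 542 and 749 CPM in immature female 3 and immature male 2. Each mature library was more than 10 times above each immature one, and the set-aside libraries, at 1678, 8822 and 6917 CPM, lay between. The means were 14145 ± 2996 CPM in mature brains (SD, n = 5) and 646 ± 146 CPM in immature brains (SD, n = 2) (log2 fold change 4.44, SE 0.43, adjusted p = 0.0356 by the quasi-likelihood F test). Compared within a sex, the mature mean was 29.2 times the immature value in females and 15.5 times in males. When a library was left out the log2 fold change lay between 3.90 and 5.02 and the adjusted p between 0.0467 and 0.258, and in the fit of all 10 libraries the adjusted p was 0.164. In bulk tissue a lower level can come from fewer cells of a type or from less RNA per cell, and these cannot be told apart.

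Another 6 called genes, Gene018667 to Gene018672, are short reading frames without a match that overlap Gene018666 on the same contig. Their log2 fold changes lay between 4.32 and 4.91, close to that of the collagen. No strand-marking step is described and the handling of shared reads is not stated for these counts, so the 7 genes cannot be counted as separate. The same holds for Gene005650 (log2 fold change 4.11) and Gene005652 (2.79), called frames that overlap Gene005647. Gene005647 itself, a match to the collagen alpha-2(XI) chain, missed the threshold with 1166, 915, 897, 760.5 and 631 CPM in the mature libraries, against 84.5 and 104 CPM in immature female 3 and immature male 2 (log2 fold change 3.19, SE 0.36, adjusted p = 0.0577). Immature female 2, immature male 1 and immature male 3, set aside, had 180, 765 and 326 CPM of it, so immature male 1 lay within the mature range.

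Other collagens ran in the same direction without passing the test. Gene012278, a match to the alpha-1(IX) chain, had 785, 444, 559, 491 and 381 CPM in mature brains, against 44.9 and 75.2 CPM in immature brains (log2 fold change 3.15, SE 0.47, adjusted p = 0.163). Gene009700, a match to the alpha-3(IX) chain, had 171, 232, 200, 185 and 178 CPM, against 74.4 and 77.4 CPM (log2 fold change 1.37, SE 0.21, adjusted p = 0.186). For both genes the 5 mature values stood clear of the 2 immature ones compared, as the naming rule requires. Immature female 2, immature male 1 and immature male 3, set aside, had 86.0, 615 and 297 CPM of Gene012278 and 48.5, 75.4 and 56.2 CPM of Gene009700. For Gene012278 immature male 1 thus lay above all mature libraries but mature female 1. Gene006612, a short match to the alpha-1(XI) chain, had between 6.03 and 15.2 CPM in mature brains and 1.21 and 1.01 CPM in immature brains (adjusted p = 0.0862).

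Collagen IV, the network-forming collagen of basement membranes, differed by smaller factors. The 4 genes that match the collagen alpha-1(IV) chain had log2 fold changes of 1.00 (Gene004659), 0.94 (Gene021832), 0.83 (Gene005662) and 0.66 (Gene007888), and none passed the test. Gene004659 had 748, 860.3, 742, 938 and 924 CPM in mature brains, against 454 and 422 CPM in immature brains. For each of the 4 genes the groups did not overlap. All 23 genes with a collagen repeat passed the filter, and 8 of them (34.8%) had all mature values above both immature ones, beside 4.24% of all genes, while 0 lay the other way. The quasi-likelihood test called 1 of them, Gene018666, and the likelihood ratio test 4, all higher, beside 0.0455% and 0.616% of all genes. Their median log2 fold change was 0.31, beside 0.05 over all genes tested, with 14 above and 9 below 0. This group was formed after the values were seen.

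Of the genes that act on collagen, some lay above the immature values in mature brains, and none passed the test. SPARC, a secreted protein that binds collagen and is needed for collagen IV deposition in Drosophila, was represented by Gene013627 and Gene017426. Gene013627 had 5304, 3675, 4779, 4288 and 3345 CPM in mature brains, against 1234 and 758 CPM in immature brains (log2 fold change 2.14, SE 0.28, adjusted p = 0.0987), and the groups were well apart. Gene017426 had 1052, 791, 919, 767 and 616 CPM in mature brains, against 257 and 198 CPM in immature brains (log2 fold change 1.87, SE 0.25, adjusted p = 0.0993). Lysyl oxidases cross-link collagen, and Gene007772, a match to Drosophila Loxl2, had 309, 208, 179.8, 259 and 336 CPM in mature brains, against 19.9 and 50.7 CPM in immature brains (log2 fold change 3.08, SE 0.45, adjusted p = 0.147). Gene007773 on the same contig had between 8.90 and 20.6 CPM in mature brains and 1.21 and 2.54 CPM in immature brains. Gene007507, a match to the secreted ADAMTS metalloproteinase stall (stl) of Drosophila, had 91.9, 42.2, 74.8, 131 and 33.7 CPM, against 2.85 and 2.54 CPM (log2 fold change 4.84, SE 0.72, adjusted p = 0.159), the widest gap of these genes on the log scale.

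Gene013551 matches Plod, the lysyl hydroxylase that modifies collagen inside the cell. It had 335, 200.2, 251, 319 and 245 CPM in mature brains, against 148 and 97.5 CPM in immature brains (log2 fold change 1.20, SE 0.30, adjusted p = 0.423). Of 68 genes tested in the wider set named for collagen maturation and basement membrane, also formed after the values were seen, the quasi-likelihood test called 0 (for 15 the unadjusted p was under 0.05), the likelihood ratio test 4 higher and 3 lower, and DESeq2 7 higher and 2 lower. Of all 24202 genes tested, 1792 had such an unadjusted p, the likelihood ratio test called 149 higher and 197 lower, and DESeq2 195 and 157. By its median the set did not lean to one side (log2 fold change 0.04, 37 genes above and 31 below 0). Groups did not overlap for 10 higher genes (14.7%, beside 4.24% of all genes) and 7 lower genes (10.3%, beside 8.37%). The 3 lower ones (Gene016240, Gene023893 and Gene022694) best match papilin, a matrix protein of Drosophila, but their Swiss-Prot matches are Kunitz-type protease inhibitors or the carboxypeptidase inhibitor SmCI. Of the matrix list (collagens, laminins and proteins with their domains), 78 of 80 genes were tested, 1 was called higher (beside 0.0455% of all genes), and the median log2 fold change was 0.14. The list held 2.75, 2.47, 2.32, 2.34 and 1.87% of counts in mature brains, against 0.699 and 0.664% in immature brains and 0.707, 1.69 and 1.34% in the set-aside libraries. Gene018666 alone held on average 1.41% of counts in mature brains and 0.0646% in immature brains. Without it, in an alternative chosen after seeing the data, the other 79 genes held 0.931, 0.915, 0.945, 1.03 and 0.856% in mature brains, against 0.644 and 0.589% in immature brains. Of the difference of 1.67 percentage points between the group means, Gene018666 made up 1.35 points. With or without it the mature and immature shares did not overlap. The exact two-sided permutation test over libraries gave p = 0.0952, the smallest that 21 splits allow, and 0.517 after adjustment over 19 lists.

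**Figure D2:**
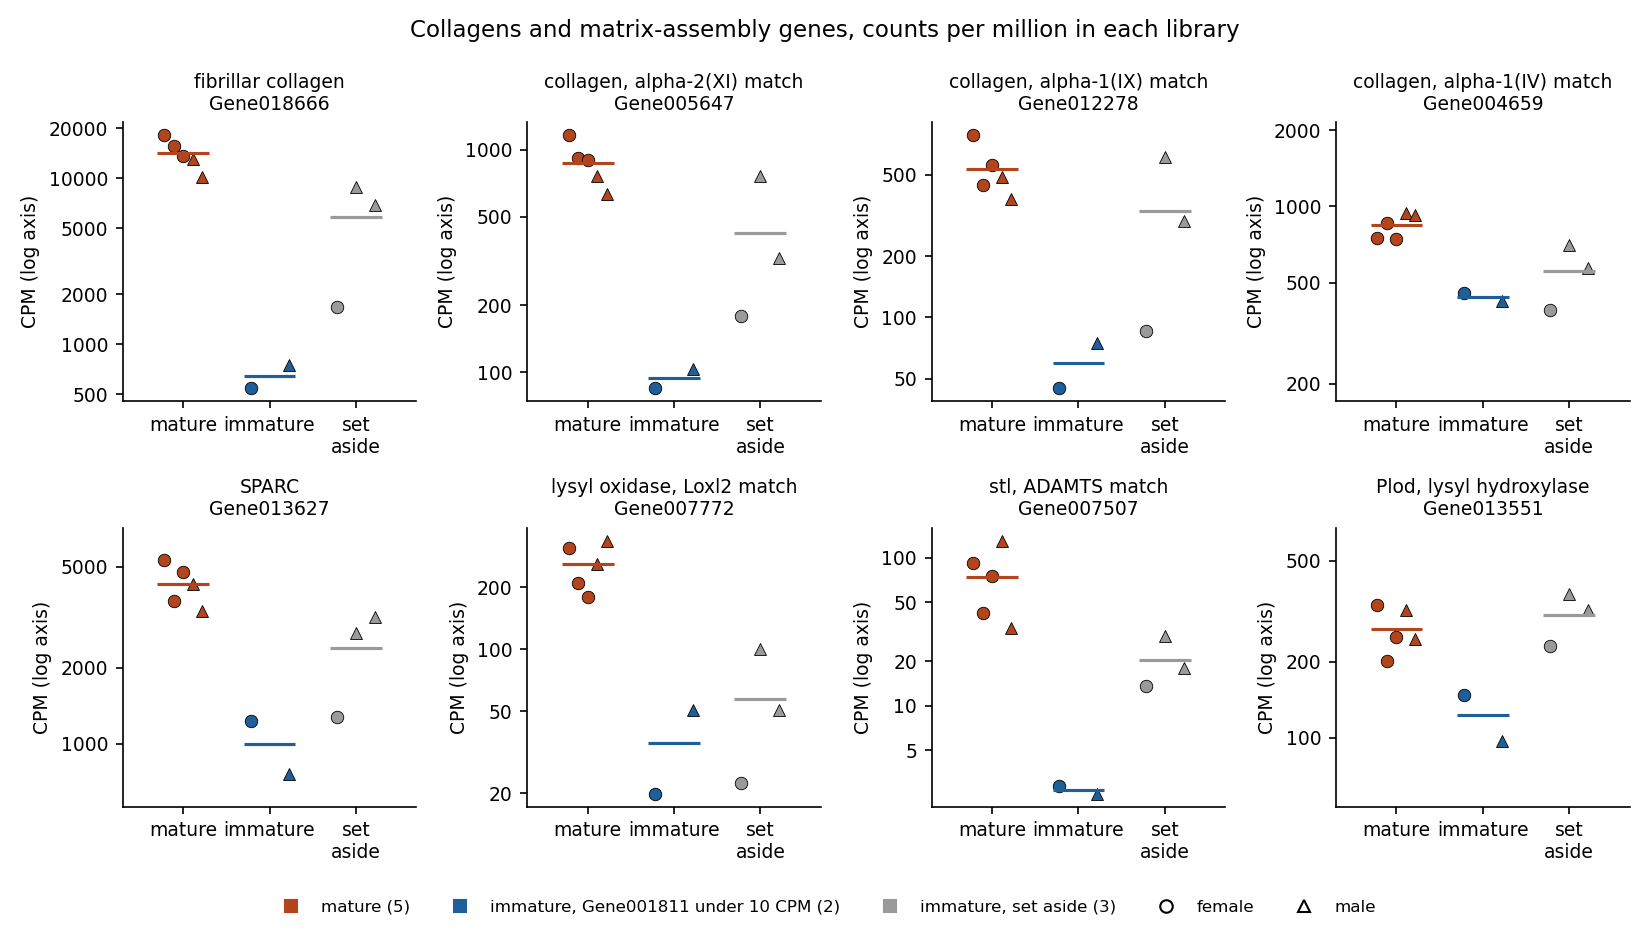
CPM on a log axis for 8 collagen and matrix genes in each library (circles females, triangles males), in mature brains, in the 2 immature brains compared and in the 3 set aside, with bars at the group means. In every panel the 5 mature points lie above both immature points, and for Gene018666 the set-aside libraries lie between.

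Cuticle proteins with the chitin-binding domain Chitin_bind_4 had the highest median fold change of the 19 lists in mature brains, yet none passed the quasi-likelihood test. Of 94 list members 73 passed the filter. The unadjusted p was under 0.05 for 29 genes, beside 1792 of all 24202 genes tested. The likelihood ratio test called 12 higher and 1 lower, beside 0.616% and 0.814% of all genes. DESeq2 called 21 higher and 1 lower, beside 195 and 157 of all 24202 genes. Groups did not overlap for 23 with higher values in mature brains (31.5%, beside 4.24% of all genes) and for 4 with lower values (5.48%, beside 8.37%). The median log2 fold change was 1.16, with 58 above and 15 below 0. Members near 0 in immature brains, such as the first one below, passed the filter through their mature values and had to differ, so these counts are a description.

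Gene017521, which matches an adult-specific rigid cuticular protein, had 88.9, 242, 37.7, 202 and 34.3 CPM in mature brains, against 0.439 and 0.338 CPM in immature brains (log2 fold change 8.25, SE 1.41, adjusted p = 0.217). Gene001525, another match to the same protein, had 172, 257, 55.0, 472 and 50 CPM, against 1.98 and 2.37 CPM (log2 fold change 6.59, SE 1.26, adjusted p = 0.265). Gene007696, a match to Cpr47Eb, had 31.4, 39.4, 26.7, 166 and 38.1 CPM, against 6.69 and 11.2 CPM (log2 fold change 2.73, SE 0.61, adjusted p = 0.348). In the first 2 of these genes mature female 2 and mature male 2 were high and mature female 3 and mature male 3 low, and in the last mature male 2 stood above the rest. Immature male 1, set aside, had 284.6 CPM of Gene001525, above 4 of the 5 mature libraries. Of the 4 cuticle genes without overlap that ran the other way, Gene000177 (Cpr47Ef) had the lowest p, with 9.37, 16.4, 11.5, 16.3 and 10.7 CPM in mature brains, against 88.8 and 31.9 CPM in immature brains (log2 fold change -2.13, SE 0.35, adjusted p = 0.211). The share of counts on cuticle genes was 0.334, 0.879, 0.166, 0.878 and 0.219% in mature brains and 0.248 and 0.233% in immature brains, and these values overlapped. The set-aside libraries held 0.0922, 0.828 and 0.0528%.

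Chymotrypsin-like proteases supplied the called genes with the largest fitted fold changes, but these were limited to mature males. Gene025438, a match to chymotrypsin-like protease CTRL-1, had 57.1 and 85.1 CPM in mature males 2 and 3 and 0.0946, 0.287 and 0.0848 CPM in mature females 1, 2 and 3, against 0 and 0 CPM in immature female 3 and immature male 2. With 1391 reads in the mature libraries and 0 in the immature ones, it was at least 153-fold higher in the pooled mature libraries, taking 3 reads over the immature group as the floor. Gene013935, a match to a chymotrypsin-like elastase, had 162 and 292 CPM in mature males and 0.0946, 0 and 0.339 CPM in mature females, against 0 and 0.169 CPM in immature brains. Its pooled ratio was 1465 with an exact 95% counting interval from 263 to 57860, resting on 1 immature read. A mature female had 0 reads of Gene013935, so its groups overlapped. The adjusted p was 0.0360 for Gene025438 and 0.0356 for Gene013935, and both calls were lost in each of the 5 fits without 1 library that tested them, with adjusted p values up to 0.835 and 0.822. Both genes passed the filter only through the mature males in which they were high, so they had to differ and their p-values are given as a description. Mature females lay near the level of the immature libraries, and immature males were represented by 1 library. The edgeR test of whether the stage difference itself differed between the sexes called 0 of all genes, with 660 at an unadjusted p under 0.05. Counting intervals cover counting error only.

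Gene025662, another CTRL-1 match, had the same pattern with 71.7 and 238 CPM in mature males, 0.662, 0.287 and 0.848 CPM in mature females and 0 and 0.169 CPM in immature brains (adjusted p = 0.0719), while immature female 2, set aside, had 25.2 CPM. Gene002109, a match to a transmembrane serine protease, was high in both sexes, with 218, 171, 154, 281 and 450.3 CPM in the mature libraries, against 7.24 and 49.7 CPM in immature female 3 and immature male 2 (log2 fold change 3.71, SE 0.58, adjusted p = 0.186). Its highest value of all, 778 CPM, was in immature female 2. Of 49 trypsin-like proteases tested, the quasi-likelihood test called 2 higher (beside 0.0455% of all genes), the 2 that passed the filter through mature males, and 0 lower. The unadjusted p was under 0.05 for 15, beside 1792 of all 24202 genes. The likelihood ratio test called 6 higher and 2 lower (beside 0.616% and 0.814%), and DESeq2 7 and 1 (beside 195 and 157 of all genes). Groups did not overlap for 7 higher (14.3%, beside 4.24%) and 6 lower (12.2%, beside 8.37%). The median log2 fold change was -0.36, but 0.32 without immature female 3. Among astacins, zinc proteases of the digestive tract and other tissues, 0 of 14 tested were called (5 at an unadjusted p under 0.05, while the likelihood ratio test and DESeq2 each called 2 higher and 1 lower), and Gene025789 had the lowest p, with 39.1, 26.4, 41.5, 37.4 and 84.5 CPM in mature brains, against 1.32 and 7.10 CPM in immature brains (log2 fold change 3.84, SE 0.62, adjusted p = 0.196). Astacins held 0.219, 0.162, 0.116, 0.0709 and 0.0710% of counts in mature brains, against 0.0168 and 0.0516% in immature brains, without overlap, and 0.314, 0.0503 and 0.0189% in the set-aside libraries. This share, like those of matrix and P450 genes, had the smallest p that the exact two-sided permutation test allows, 0.0952, or 0.517 after adjustment over 19 lists.

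The 3 genes that fell in mature brains included a glutathione S-transferase and a dehydrogenase. Gene010232, a match to GstS1, an enzyme that conjugates glutathione to reactive compounds, had 0.757, 0.574, 0.424, 0.904 and 1.25 CPM in mature females 1, 2 and 3 and mature males 2 and 3, against 15.9 and 15.4 CPM in immature female 3 and immature male 2. The immature libraries were nearly equal and more than 10 times above every mature one, and the set-aside libraries had 207, 3.39 and 37.8 CPM. The fitted difference was -4.25 on the log2 scale (SE 0.33, adjusted p = 0.0250 by the quasi-likelihood F test). The immature value was 27.2 times the mature mean in females and 14.3 times in males. This gene passed the filter on low counts through the immature libraries in which it was high, so it had to differ. Its p-value is given as a description. When 1 library was left out the log2 fold change lay between -4.59 and -3.88, with an adjusted p between 0.0412 and 0.388, and the gene was called in 2 of these 7 fits.

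Gene021106, a match to Drosophila CG9518 and to an FAD-dependent glucose dehydrogenase, had 12.1, 15.2, 12.0, 7.63 and 11.7 CPM in mature brains, against 127 and 42.4 CPM in immature brains (log2 fold change -2.73, SE 0.28, adjusted p = 0.0438). Gene013291, which has no match, had 141, 79.3, 81.0, 69.9 and 48.3 CPM in mature brains, against 879 and 359 CPM in immature brains (log2 fold change -2.83, SE 0.30, adjusted p = 0.0493). Each of the 2 genes was called in 1 of the 7 fits without 1 library. The set-aside libraries had between 2.08 and 8.55 CPM of Gene021106 and between 1.99 and 40.9 CPM of Gene013291. In both genes all of them lay below both immature libraries compared. For Gene013291 they also lay below every mature library, and for Gene021106 below every mature library but mature male 2. The higher immature level of these genes thus held for the chosen immature libraries only. In both genes immature female 3 was higher than immature male 2. Immature female 3 was also the library with 1.58% of its counts on haemocyanin, and the part of blood in these levels was not tested.

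Further enzymes were lower in mature brains without passing the test. Gene003834, a second GstS1 match, had 49.5, 54.9, 54.2, 62.6 and 66.0 CPM in mature brains, against 151 and 161 CPM in immature brains (log2 fold change -1.38, SE 0.16, adjusted p = 0.0663). Aldehyde dehydrogenase Aldh (Gene019538), which oxidizes aldehydes, had 205, 199, 239.8, 259.6 and 179 CPM, against 844 and 644 CPM (log2 fold change -1.74, SE 0.19, adjusted p = 0.0577). Gene018832, whose Drosophila match Pdh is a dehydrogenase of the eye and whose Swiss-Prot match is 15-hydroxyprostaglandin dehydrogenase, had 38.1, 47.7, 31.98, 37.1 and 31.8 CPM, against 149 and 115 CPM (log2 fold change -1.79, SE 0.21, adjusted p = 0.0713). In all 3 genes the immature libraries lay close together. They stood above every mature one, as the naming rule requires. Of 15 glutathione S-transferases tested, a group formed after the values were seen, the test called 1 lower, beside 0.0124% of all genes. Non-overlapping groups with lower values in mature brains were found for 7 (46.7%), beside 8.37% of all genes, and 0 lay the other way. Gene010232 is among the 7 and passed the filter through its immature values, so these counts are a description.

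Among the remaining genes that the naming rule picked on the lower side, Gene019641 (CG12009) had 1.89, 0.862, 1.87, 2.31 and 2.81 CPM in mature brains, against 18.9 and 10.1 CPM in immature brains (adjusted p = 0.109), and reached 253 CPM in immature female 2. Reg-5 (Gene005804) had 1.70, 3.16, 1.36, 1.20 and 1.25 CPM in mature brains, against 12.6 and 4.56 CPM in immature brains (adjusted p = 0.186). In both genes the lowest immature value was above every mature one, as the naming rule requires. Atg8b (Gene021638), a match to a protein of autophagosomes, had 13.7, 23.3, 23.0, 12.9 and 16.7 CPM, against 66.2 and 35.0 CPM (adjusted p = 0.211). Gene023035 (CG3556), Gene023736 and Gene023894 had adjusted p values of 0.163, 0.192 and 0.186, at mean levels of at most 2.81 CPM in mature brains and 19.2 CPM in immature brains. Gene023736 matches a SMYD2-type lysine methyltransferase, and Gene023894 a Kunitz-type toxin of another spider.

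**Figure D3:**
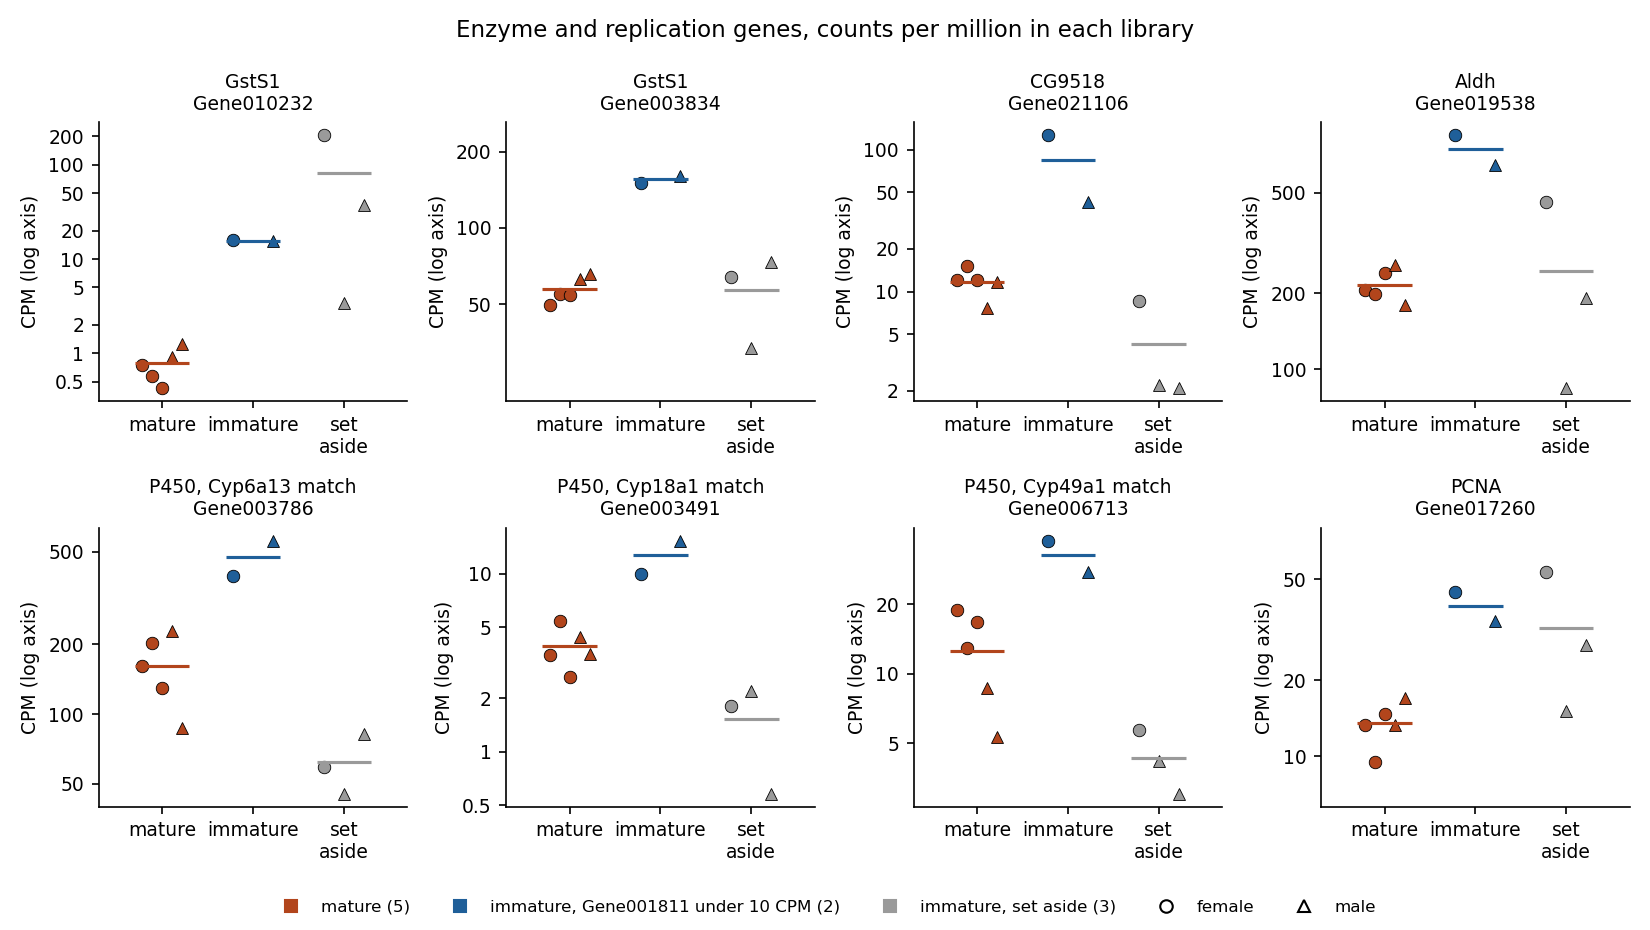
CPM on a log axis for 8 genes at lower levels in mature brains, with symbols as in the plot of matrix genes. In every panel both immature points lie above the 5 mature points, and for Cyp6a13 and Cyp18a1 the set-aside libraries lie below the mature ones.

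Cytochrome P450 genes had, of the 19 lists, the largest share of members without overlap between the groups. Of 76 genes with the p450 domain, 71 were tested, and 63 had a log2 fold change below 0 and 8 above. The median was -0.77, beside 0.05 over all genes tested, and 0.00 when all 5 immature libraries formed the immature group. The quasi-likelihood test called 0 of them (for 29 the unadjusted p was under 0.05), the likelihood ratio test 7 lower and 0 higher, and DESeq2 5 lower and 0 higher. Of all 24202 genes tested, 1792 had such a p, the likelihood ratio test called 197 lower and 149 higher, and DESeq2 157 and 195. Both immature libraries lay above all 5 mature ones for 33 (46.5%), beside 8.37% of all genes, and below them for 1. Some members were near 0 in mature brains and passed the filter through their immature values, so they had to differ. These counts are a description. Together P450 genes held 0.315, 0.346, 0.341, 0.366 and 0.369% of counts in mature brains, against 0.502 and 0.592% in immature brains. The libraries set aside had the lowest shares, 0.196, 0.160 and 0.190%, so the immature libraries fell on either side of the mature ones. The exact two-sided permutation test of the mature and immature shares gave p = 0.0952, the smallest possible, and 0.517 after adjustment over 19 lists.

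By the rule, Gene025801 (Cyp9c1) is the P450 gene with the lowest p. It had 8.61, 8.62, 9.41, 14.5 and 11.1 CPM in mature brains, against 19.0 and 24.3 CPM in immature brains (log2 fold change -0.97, SE 0.20, adjusted p = 0.301). Gene003786, a match to Cyp6a13 and among the most abundant, had 160.4, 203, 130.0, 227 and 87.2 CPM in mature brains, against 393 and 558 CPM in immature brains and 59.3, 45.3 and 82.3 CPM in the set-aside libraries (log2 fold change -1.51, SE 0.38, adjusted p = 0.430). Gene006713, a match to Cyp49a1, had 18.9, 12.9, 16.8, 8.63 and 5.301 CPM, against 37.9 and 27.7 CPM (log2 fold change -1.56, SE 0.32, adjusted p = 0.303). Cyp18a1 inactivates ecdysone in Drosophila. Of the genes that match it in both databases, Gene003491 had 3.50, 5.46, 2.63, 4.42 and 3.53 CPM in mature brains, against 9.99 and 15.4 CPM in immature brains (log2 fold change -1.64, SE 0.34, adjusted p = 0.308), and Gene006602 had 226, 192, 196, 163 and 231 CPM, against 348 and 293 CPM (log2 fold change -0.63, SE 0.22, adjusted p = 0.599). In each of these genes the set-aside libraries lay below both immature libraries. P450 genes are a large family of close copies, so reads may have been split between members.

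**Figure D4:**
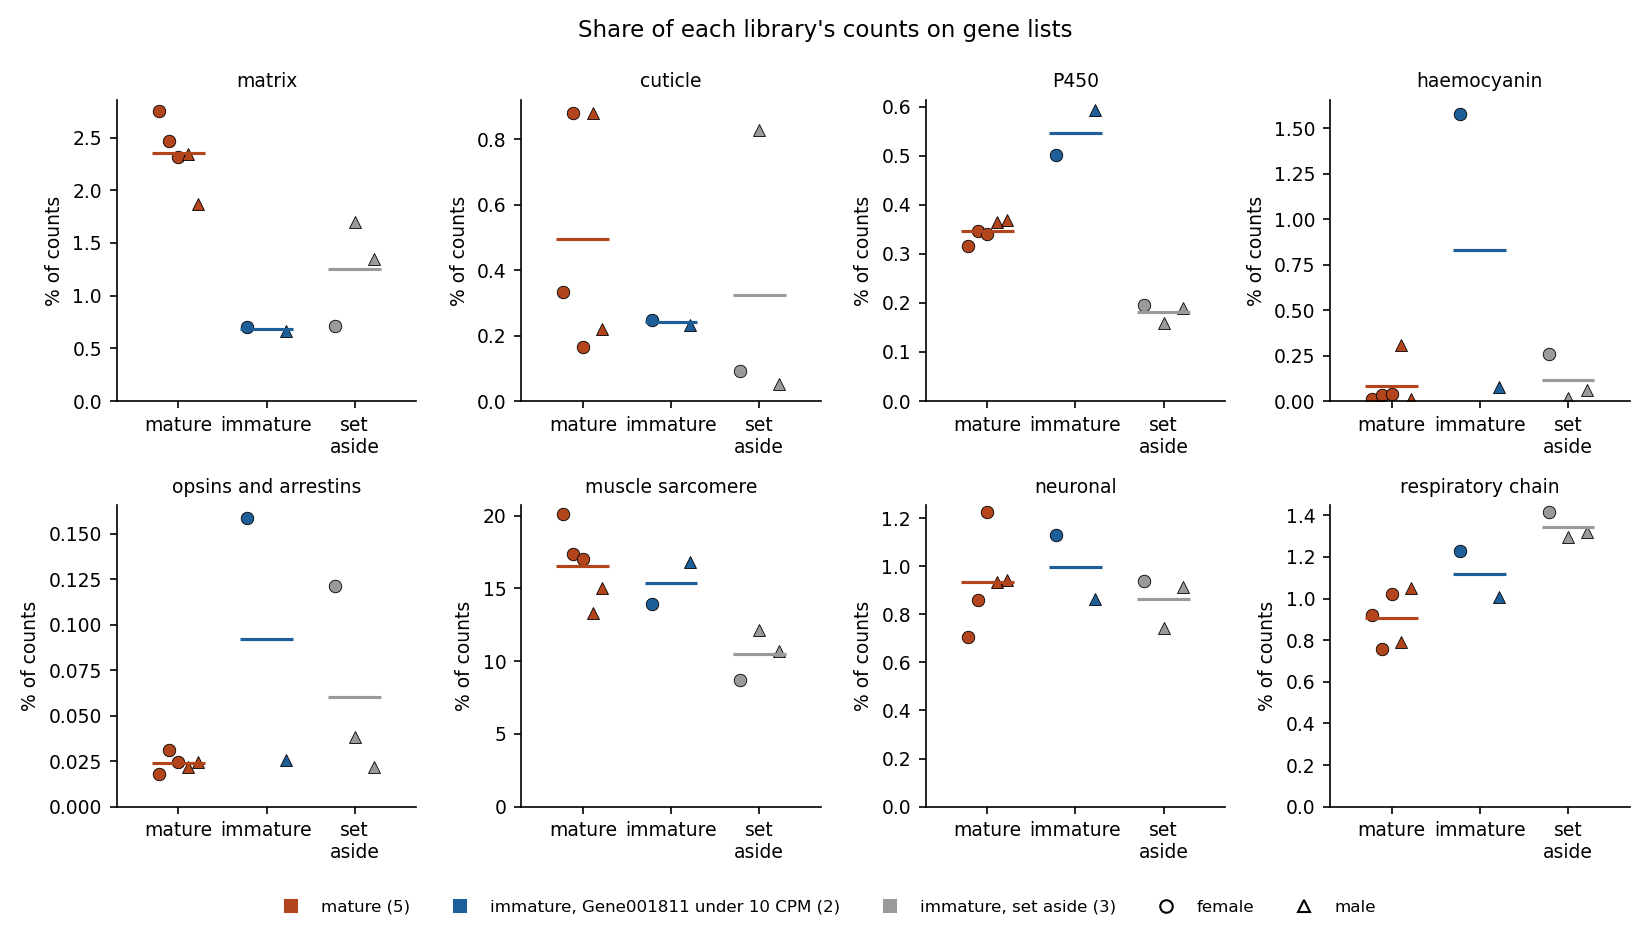
Percent of each library's counts on 8 gene lists, on linear axes from 0, with symbols as in the plot of matrix genes. Matrix shares are higher and P450 shares lower in all 5 mature libraries than in both immature ones, the other lists overlap between mature and immature brains, and immature female 3 has the highest share of haemocyanin and of opsins and arrestins.

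Genes of growth and energy metabolism had medians slightly below 0, and none was called. In the replication and cell division list, 77 of 84 genes were tested, the median log2 fold change was -0.17 (-0.02 without immature female 3), and 12 (15.6%, beside 8.37% of all genes) had non-overlapping groups with lower values in mature brains, 1 the other way. The unadjusted p of 10 was under 0.05, and the likelihood ratio test and DESeq2 each called 1 lower, beside 1792, 197 and 157 of all 24202 genes. PCNA (Gene017260), the sliding clamp of DNA polymerase, had 13.3, 9.48, 14.8, 13.3 and 17.0 CPM in mature brains, against 44.4 and 34.3 CPM in immature brains (log2 fold change -1.48, SE 0.24, adjusted p = 0.211). Mcm genes encode the replicative helicase, and the Mcm2 match Gene020226 had 1.99, 2.59, 2.71, 3.51 and 1.25 CPM, against 11.2 and 4.39 CPM (log2 fold change -1.60, SE 0.42, adjusted p = 0.446). Respiratory chain genes had a median of -0.21, with 57 of 62 below 0. The unadjusted p was under 0.05 for 0 of them, and the likelihood ratio test and DESeq2 called 0. Their share was between 0.756% and 1.05% in mature brains, against 1.23 and 1.01% in immature brains. Their lowest p was that of Gene020110, the ATP synthase subunit blw, with 936, 817, 986, 774 and 950.3 CPM, against 1519 and 1024 CPM (adjusted p = 0.685). Cytosolic ribosomal proteins had a median of -0.17, with 62 of 73 below 0, and shares that overlapped. They held between 0.870% and 1.17% of counts in mature brains and 1.33 and 1.04% in immature brains, whereas the set-aside libraries held between 2.25% and 2.52%.

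For nuclear receptors of the ecdysone cascade, the comparison asked what remained between the stages once libraries high in Gene001811 were left out. No receptor was called by the quasi-likelihood test, the likelihood ratio test or DESeq2, and 2 reached an unadjusted p under 0.05. Of 15 such genes 14 were tested, with a median log2 fold change of 0.09. Groups did not overlap for 3 with higher values in mature brains, Hr3, ftz-f1 and Hr38 (21.4%, beside 4.24% of all genes), and for 2 with lower values, E75 and EcR (14.3%, beside 8.37%). The set-aside libraries also stood apart in Hr3 (Gene022715), the second Hr4 match (Gene001472), E75 (Gene005488) and ftz-f1 (Gene007559). Leaving those libraries out brought these receptors nearer the mature level, so the absence of calls describes the chosen libraries only. With all 5 immature libraries their log2 fold changes were -3.48, -4.02, -1.97 and 1.51, and none of these was called.

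Hr3 (Gene022715) had 2.46, 2.59, 2.63, 3.31 and 2.599 CPM in mature brains, against 1.43 and 1.86 CPM in immature brains (log2 fold change 0.80, SE 0.32, adjusted p = 0.644). Both groups were far below the set-aside libraries, which had 20.1, 144 and 137 CPM. The second Hr4 match, Gene001472, which lies on another contig, had 5.77, 14.6, 6.28, 4.82 and 4.37 CPM in mature brains, against 5.16 and 15.7 CPM in immature brains (log2 fold change -0.64, SE 0.68, adjusted p = 0.856), and 152, 156 and 283 CPM in the libraries set aside. E75 (Gene005488), a receptor and early target of ecdysone, had 37.8, 64.3, 53.4, 50.3 and 67.8 CPM in mature brains, against 98.8 and 87.6 CPM in immature brains (log2 fold change -0.72, SE 0.24, adjusted p = 0.566). Its set-aside values were 530.1, 187 and 219 CPM, so the immature libraries compared lay between the mature and the set-aside ones.

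The receptor ftz-f1 (Gene007559) had 44.4, 55.7, 34.8, 51.8 and 33.7 CPM in mature brains, against 28.9 and 30.1 CPM in immature brains (log2 fold change 0.62, SE 0.29, adjusted p = 0.704), and only 2.42, 13.2 and 4.16 CPM in the set-aside libraries. Hr38 (Gene001184) had 16.0, 70.9, 24.5, 18.7 and 25.4 CPM in mature brains, against 13.6 and 14.7 CPM in immature brains (log2 fold change 1.04, SE 0.61, adjusted p = 0.777), with mature female 2 above the rest. Both receptors had all mature values above the immature ones by narrow margins. The ecdysone receptor EcR (Gene017234) had 45.4, 50.6, 54.3, 54.2 and 53.4 CPM in mature brains, against 70.9 and 55.9 CPM in immature brains (log2 fold change -0.25, SE 0.17, adjusted p = 0.797). The E78 match Gene009104 had 83.6, 88.2, 107, 104 and 104 CPM, against 113 and 80.5 CPM (log2 fold change 0.05, SE 0.19, adjusted p = 0.970), with overlapping groups. Hr39 (Gene009352), the RXR-type usp matches Gene007749 and Gene018956, Gene001858 (Hr3), Gene007139 and Gene008954 (E78) and Gene024685 (ftz-f1) had overlapping groups. Outside the cascade, Hnf4 (Gene004115), a receptor that regulates lipid metabolism in Drosophila, had the lowest p of the nuclear receptors, with 1.89, 1.15, 1.10, 2.81 and 0.624 CPM in mature brains, against 4.39 and 7.44 CPM in immature brains (log2 fold change -1.82, SE 0.54, adjusted p = 0.495).

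**Figure D5:**
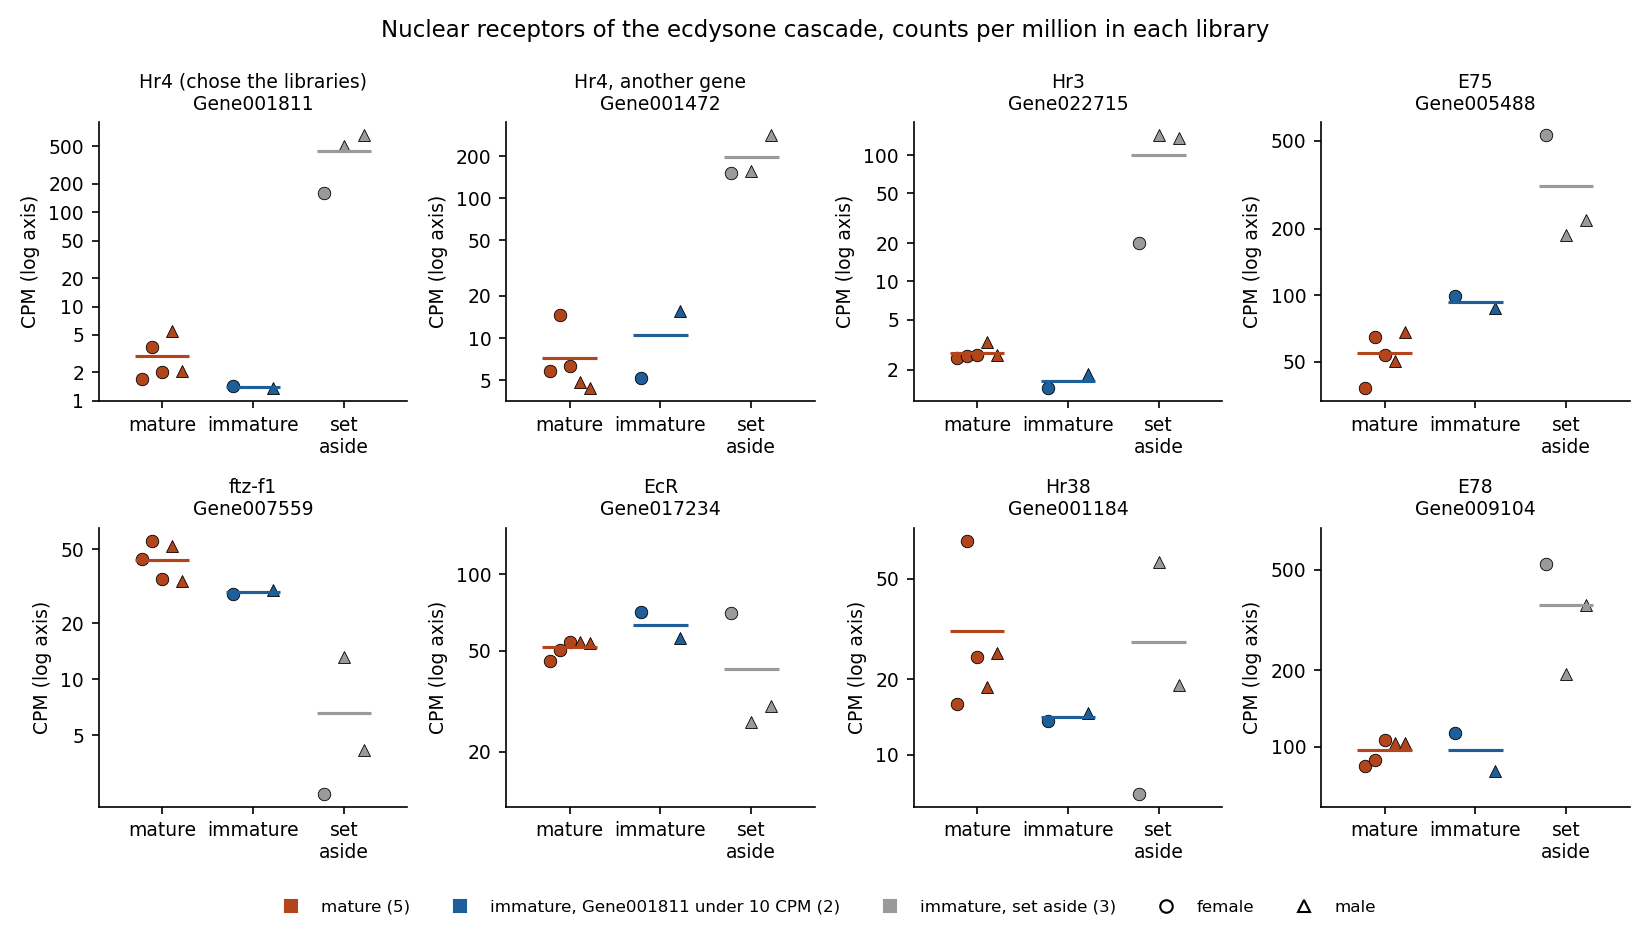
CPM on a log axis for 8 nuclear receptor genes, with symbols as in the plot of matrix genes; Gene001811 chose the libraries. Mature and compared immature libraries lie close together for the second Hr4 match, EcR and E78, while the set-aside libraries stand apart for both Hr4 genes, Hr3, E75, ftz-f1 and E78.

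No neuronal or sarcomere gene was called by the quasi-likelihood test, the likelihood ratio test or DESeq2, and 10 and 4 genes reached an unadjusted p under 0.05. Of 255 neuronal genes tested the median log2 fold change was 0.18, with 180 above and 75 below 0, and 18 (7.06%, beside 4.24% of all genes) had non-overlapping groups with higher values in mature brains, 3 the other way. The lowest p belonged to Gene007245, a fragment that matches the calcium channel cacophony (cac), with 4.45, 6.03, 6.96, 5.52 and 4.99 CPM in mature brains, against 1.43 and 2.70 CPM in immature brains (log2 fold change 1.51, SE 0.39, adjusted p = 0.436). Several fragments on separate contigs matched cac or the sodium channel para, so members of this list may be pieces of one gene. The nicotinic receptor subunit match Gene007366 (nAChRalpha2) lay the other way, with 880.2, 841, 1304, 925 and 923 CPM in mature brains, against 2007 and 1391 CPM in immature brains (log2 fold change -0.77, SE 0.21, adjusted p = 0.460). Of 126 sarcomere genes tested, the median was 0.01, with 65 above and 61 below 0. Twitchin (bt, Gene013170) had the lowest p among them, with 5.96, 3.73, 3.48, 6.22 and 2.81 CPM in mature brains, against 1.98 and 1.86 CPM in immature brains (log2 fold change 1.27, SE 0.47, adjusted p = 0.625).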

How the data were processed

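RNA of 10 single brains had been sequenced, and a table of read counts per predicted gene was deposited together with an annotation. The authors trimmed the reads with Trimmomatic 0.32 and assembled them de novo, mapped them with BWA 0.6.1 to the predicted coding sequences and counted them, per the paper's methods and the submitters' processing notes. No genome was used, coordinates are positions on assembled contigs, and the treatment of strand and of reads shared by overlapping frames is not given in the sources used here. The deposited counts were whole numbers, with no normalization. In 14278 rows of the annotation the fields after a blank were moved by 1 column and were moved back. Of the 25922 counted genes 16491 had a match to Swiss-Prot or Drosophila, and 8675 overlapped another frame.

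Library groups came from the labels. The 5 mature libraries and the 2 immature libraries under 10 CPM of Gene001811 were fitted in edgeR 4.0.16 (R 4.3.3) with TMM normalization, a filter of 10 counts (filterByExpr) and terms for sex and stage. The quasi-likelihood F test had 4 residual degrees of freedom, p-values were adjusted over all genes tested (Benjamini-Hochberg), and the SE is the fold change over the root of F. The common coefficient of variation was 0.383. The labels name 1 spider per library and no batch. Alternatives were the likelihood ratio test, DESeq2 1.42.0 and other normalizations, filters, designs and sets of libraries. The test was checked on simulated data. Members, gene lists and tests were chosen with earlier results of these data known.

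Genes were named by this rule: in each direction the 12 annotated genes with the lowest p and groups without overlap, 1 per contig; the 1 gene without a match that had the lowest p; in each of the 19 lists the called genes or the 1 with the lowest p; and all ecdysone cascade receptors. List shares of counts were compared with an exact two-sided permutation test over libraries.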

Additional observations from a re-analysis of the deposited data

Results flagged for a closer look

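Of 86 sets of 5 mature values examined, 11 held a library that stood apart, with a gap to its nearest neighbour above 0.71 of the whole range (Dixon's 95% value), and chance alone flags about 1 in 20 sets. Mature female 2, the library with the smallest total (3481348 reads), stood apart in total reads and also in Hr38 (Gene001184, 70.9 CPM), the second Hr4 match (Gene001472, 14.6 CPM), Reg-5 (Gene005804, 3.16 CPM) and the chitin turnover list (0.487% of counts). It was the lowest mature library for the usp match Gene018956 (20.1 CPM).

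Mature male 2 stood apart in the cv-d match Gene000638 (30.5 CPM), in the share of the vitellogenin and apolipophorin list (0.00752% of counts), in haemocyanin (0.306% of counts) and in Hr3 (Gene022715, 3.31 CPM). Mature male 3 stood apart in the astacin Gene025789 (84.5 CPM). Apart from total reads, each flagged item concerns a gene or list in which no quasi-likelihood call was made.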

How the results depend on the processing

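With 2 immature libraries the calls depended on the test and on single libraries. Against 14 genes (11 higher and 3 lower in mature brains), the likelihood ratio test called 346 (149 higher, 197 lower), DESeq2 352 (195 higher, 157 lower) and the newer quasi-likelihood estimate 12 higher and 7 lower. Without a sex term 9 were called (7 higher), and with 4 group means 9 (7 higher). Thinning to the smallest total gave 14 higher and 6 lower. All 5 immature libraries taken as 1 group gave 26 (23 higher), with 0 of the 12 original genes tested among them. That quasi-likelihood fit called the collagen Gene009700 (log2 fold change 1.59, adjusted p = 0.0359), Gene007772 (Loxl2; 2.86, adjusted p = 0.0377) and Gene007773 on its contig (2.92, adjusted p = 0.0339). It also called the papilin match Gene016240 as lower (-2.53, adjusted p = 0.0377). Gene018666 was not called there (2.53, adjusted p = 0.248). The fit of all 10 libraries called 0, 0 higher and 0 lower, with 1855 genes at an unadjusted p under 0.05. Leaving out 1 library gave 0 to 11 genes in all, 0 to 9 higher and 0 to 5 lower; where 1 immature library remained, it was assumed to vary like the mature ones. The other normalization and both filters kept the counts within 1.5 times and called 13 or 14 of the original genes. With the replicate block 38 were called (32 higher, 6 lower), 11 of the original 14 among them. The labels do not pair the libraries, which share only a number. The deviations of mature males 2 and 3 correlated with those of the same-numbered females at 0.169 and 0.179. As there were 2 mature males, their deviations from their mean mirror each other, so these correlations are not independent. Of 1497 fold changes of named genes under these alternatives, 1278 kept their direction and their side of the threshold, 91 passed it in addition, 118 no longer passed it and 10, none of a called gene, took the other sign. With all 5 immature libraries the log2 fold change was -3.48 for Hr3 (Gene022715), -0.64 for Gene001858, -1.34 for the E78 match Gene009104, 0.0635 for EcR, 0.16 for the Cyp18a1 match Gene006602 and 0.0011 for Cyp9c1, and thinning gave 0.0462 for the usp match Gene007749. Leaving out 1 library gave -1.83 to 0.88 for the second Hr4 match, -0.15 to 0.31 for Gene009104 and -0.23 to 0.61 for Gene018956. Of 361 medians of gene lists 25, in 11 lists, took the other sign, and 19 moved by more than the spread between mature libraries, while 50 counts of called members moved by more than 1.5 times. Without Gene018666 the matrix list held 0.935% of mature counts on average, against 2.35% with it. The cause of these changes was not tested. Depth was lowest in mature female 2, and genes with few reads in the immature libraries have no usable fold change beyond the bounds given.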

Other observations

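Immature female 3 had the highest share of haemocyanin counts of the 10 libraries. Haemocyanin genes held 0.0105, 0.0349, 0.0372, 0.306 and 0.0121% of counts in mature brains, against 1.58 and 0.0790% in immature female 3 and immature male 2, and 0.260, 0.0176 and 0.0629% in the set-aside libraries. All 5 genes of the list had a log2 fold change below 0, with a median of -3.94 (1.44 without immature female 3), and 0 were called (1 at an unadjusted p under 0.05, 0 by the likelihood ratio test or DESeq2). Opsins and arrestins, which carry and end the light response of photoreceptors, held between 0.0182% and 0.0310% in mature brains, against 0.159 and 0.0254% in immature female 3 and immature male 2. This list as a whole did not lean to one side. Of 15 genes tested 6 lay above and 9 below 0, with a median of -0.08. Groups did not overlap for 1 higher gene (6.67%, beside 4.24% of all genes) and 1 lower gene (6.67%, beside 8.37%). The quasi-likelihood test called 0 (6 at an unadjusted p under 0.05, 1 lower by each of the other tests). Of all 24202 genes tested, 1792 had such a p, and the likelihood ratio test and DESeq2 called 197 and 157 lower. The gene with the lowest p, the arrestin Arr2 (Gene016785), had 27.2, 24.4, 22.0, 22.7 and 24.4 CPM in mature brains, against 213 and 34.5 CPM in immature female 3 and immature male 2 and 190.5, 38.1 and 17.6 CPM in the set-aside libraries (log2 fold change -2.07, SE 0.46, adjusted p = 0.355). Immature female 2, set aside, was thus also high. Gene000638, a member of the vitellogenin and apolipophorin list whose Drosophila match is cv-d, had 1.61, 0.862, 0.424, 30.5 and 1.87 CPM in mature brains, against 159 and 28.9 CPM in immature brains (log2 fold change -5.28, SE 1.64, adjusted p = 0.541).

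Among the remaining lists the quasi-likelihood test called 0 genes. Of all 24202 genes tested, 1792 reached an unadjusted p under 0.05, and DESeq2 called 195 higher and 157 lower. For 63 chitin turnover genes tested these counts were 10, 3 and 1, with a median log2 fold change of 0.12. They were 15, 5 and 3 for 47 CRAL-TRIO lipid carriers (median -0.08) and 1, 0 and 1 for 32 heat shock genes (0.05). For 21 serpins they were 3, 0 and 0 (-0.48), and for 67 venom and toxin genes 13, 2 and 3 (-0.39). Without immature female 3 the medians of serpins and of venom and toxin genes were 0.18 and 0.42. The venom protease match Gene013936 had the pattern of the chymotrypsin-like proteases, with 83.9 and 190.3 CPM in mature males, 0.189, 0.862 and 0.0848 CPM in mature females and 0 and 0.169 CPM in immature brains (adjusted p = 0.0987). The small heat shock protein match l(2)efl (Gene015740) had 528, 594, 488, 492 and 376 CPM in mature brains, against 971 and 845 CPM in immature brains (log2 fold change -0.86, SE 0.20, adjusted p = 0.392). For l(2)efl both immature values stood above all mature ones. The serpin match Gene023329 had 1.99, 0.862, 0.509, 1.51 and 0.832 CPM in mature brains, against 5.16 and 3.55 CPM in immature brains (adjusted p = 0.486). The alpha-tocopherol transfer protein match Gene000275 had 1.61, 2.59, 4.67, 1.41 and 1.46 CPM, against 20.0 and 4.06 CPM (adjusted p = 0.247), and the ribosomal protein RpL10Ab (Gene008736) had 92.9, 97.7, 92.0, 98.1 and 108 CPM, against 164 and 123 CPM (adjusted p = 0.625).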
